A study of Homo sapiens with 9 samples.

Results

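Some long noncoding RNA (lncRNA) genes serve as hosts of small RNAs: a small nucleolar RNA (snoRNA) or a microRNA (miRNA) is cut out of the host transcript, and the rest of the host is spliced, exported or degraded. These hosts were examined in the triple-negative breast cancer (TNBC) line MDA-MB-231, long established in culture, as rows named SNHG or MIR...HG (SNHG followed by a number, MIR followed by digits or letters and HG) together with GAS5, ZFAS1 and EPB41L4A-AS1. The rule found 83 of the 58735 genes in the count files, with 82 different symbols. Of these, 28 are snoRNA hosts of the SNHG type, here including GAS5, ZFAS1 and EPB41L4A-AS1, and 55 are miRNA hosts (MIRHG). RNA was sequenced in 9 libraries, 3 from vehicle-treated cells (DMSO), 3 from cells that survived increasing doses of erastin (erastin-R) and 3 from cells that survived increasing doses of RSL3 (RSL3-R). Erastin blocks system xc-, the cystine importer, and RSL3 inhibits GPX4, the enzyme that reduces lipid peroxides, and both induce ferroptosis. All 3 groups carry the same cell line with no engineered allele, and vehicle-treated cells received the solvent only. The labels name only the treatment. That the resistant groups are surviving cells is the study's description, and whether they were cloned is not stated there for these libraries. The study measured resistance in lines whose making it describes after the sequencing, and states no such measure for the sequenced cells. Resistant is therefore used here as a group name, and effects of drug exposure and of resistance cannot be told apart. The labels do not say whether the 3 libraries of a group came from separate cultures, so the p values measure the spread between these libraries, which may be technical.

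SNHG transcripts carry box C/D or box H/ACA snoRNAs in their introns, which guide methylation or pseudouridylation of ribosomal RNA. Several have a pyrimidine-rich 5′ end and short reading frames, and their spliced RNAs are known as targets of nonsense-mediated decay (NMD), a decay route that needs translation. MIRHG transcripts contain miRNA hairpins that Drosha and DGCR8 release in the nucleus. The libraries were made from RNA selected by oligo(dT), so they measure the polyadenylated host and not the mature snoRNA or miRNA.

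Selected miRNAs of the hosts that changed at least 2-fold, and of MIR22HG, are shown first because several hosts encode related or identical products. The mature sequences are RefSeq's (GRCh38.p14), 5′ to 3′, with the seed, bases 2 to 8, in capitals. MIR100HG on chromosome 11 and MIR99AHG on chromosome 21 each carry 3 hairpins that pair by seed between the 2 hosts.
miR-100-5p: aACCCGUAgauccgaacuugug
miR-99a-5p: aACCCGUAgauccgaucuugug
let-7a-5p: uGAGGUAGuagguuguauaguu
let-7c-5p: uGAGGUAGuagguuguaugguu
miR-125b-5p: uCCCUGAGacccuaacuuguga
The seeds of the first pair are the same, and miR-99a-5p differs from miR-100-5p by A16U, counted from the 5′ end. let-7c-5p differs from let-7a-5p by A19G, outside the seed. The miR-125b-5p made from both loci is the same sequence. Within MIR29B2CHG on chromosome 1 and MIR17HG on chromosome 13, pairs of products again share a seed.
miR-29b-3p: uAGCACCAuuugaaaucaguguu
miR-29c-3p: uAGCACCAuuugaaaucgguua
miR-17-5p: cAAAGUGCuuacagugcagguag
miR-20a-5p: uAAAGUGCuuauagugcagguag
miR-20a-5p differs from miR-17-5p by C1U and C12U, both outside the seed. For the other hosts with a 2-fold change, and MIR22HG, 1 miRNA each is shown, and these seeds are not shared with any listed here.
miR-503-5p: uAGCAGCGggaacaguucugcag
miR-22-3p: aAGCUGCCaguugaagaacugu
miR-146a-5p: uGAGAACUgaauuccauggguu
miR-210-3p: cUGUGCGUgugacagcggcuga
miR-34a-5p: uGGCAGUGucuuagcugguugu
miR-137-3p: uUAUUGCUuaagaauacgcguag
miR-3681-5p: uAGUGGAUgaugcacucugugc
Further miRNAs of MIR17HG, MIR137HG and MIR3142HG are not shown, and those that are make up 16 distinct mature sequences with 12 distinct seeds.

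The snoRNAs inside SNHG hosts are of both kinds. The sequences of 4 from the GENCODE 29 transcripts (GRCh38) show the box C/D kind, with box C (TGATGA) near the 5′ end and box D (CTGA) near the 3′ end in capitals. SNORD25 and SNORD27 lie within SNHG1 and SNORD50B within SNHG5, at positions that some annotated host transcript covers with an exon, and SNORD123 lies in an intron of SNHG18.
SNORD25: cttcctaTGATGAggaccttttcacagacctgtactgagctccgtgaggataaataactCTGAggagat
SNORD27: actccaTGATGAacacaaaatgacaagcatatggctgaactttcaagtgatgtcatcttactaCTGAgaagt
SNORD50B: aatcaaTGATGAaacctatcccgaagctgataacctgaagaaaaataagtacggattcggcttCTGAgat
SNORD123: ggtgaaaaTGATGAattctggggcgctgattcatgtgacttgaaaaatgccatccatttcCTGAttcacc
SNORA13, in an intron of EPB41L4A-AS1, is of the H/ACA kind, and its ACA box before the last 3 bases is in capitals.
SNORA13: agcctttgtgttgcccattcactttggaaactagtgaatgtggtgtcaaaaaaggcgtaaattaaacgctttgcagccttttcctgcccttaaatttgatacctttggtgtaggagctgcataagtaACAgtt

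Total counts ranged from 15405102 to 17273464 per library. Levels are given as CPM, the counts scaled to the library size with TMM factors, where they are compared between libraries, and as the authors' FPKM, which also divides by transcript length, where they are compared between genes. The floor of 3 counts was 0.174 to 0.195 CPM and covers counting error only. A gene was called at a Benjamini-Hochberg adjusted p under 0.05 from edgeR's quasi-likelihood test of all 16188 genes tested, and as changed 2-fold where the log2 fold change (log2FC) was also at least 1 in size. The line's own markers were high in every group (VIM 1422, AXL 1007, EGFR 510 and CD44 277 CPM as means of all libraries). With CAV1, the other marker fixed for the line, the lowest value of the 5 in any library was 231 CPM. They were not constant between groups. Against vehicle, 2 of the 5 were called higher and 2 lower in each resistant group, 1 of them 2-fold lower in erastin-R cells (log2FC -1.14). ESR1, PGR, CDH1 and EPCAM, which MDA-MB-231 cells hardly express, had 0.297, 0.0747, 1.78 and 1.71 CPM. ERBB2, also fixed as a low marker because the line lacks its amplification, was not low, with 93.3 CPM in vehicle-treated, 81.9 in erastin-R and 62.0 CPM in RSL3-R libraries. Of the 5 low markers 3 were tested, and in RSL3-R cells 1 was called higher (log2FC 1.58) and 1 lower than in vehicle-treated cells. The summed level of 6 markers of leukocytes, endothelium and fibroblasts was 17.8 to 20.2 CPM in vehicle-treated, 10.1 to 12.5 in erastin-R and 24.0 to 25.1 in RSL3-R libraries, mostly from PECAM1 and COL1A1, while CDH5 and CD68 were at 0.048 and 0.152 CPM. Their part in the host results was not tested.

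Of the 83 rows, 21 had no count in any library, 20 of them MIRHG. A further 22 had some counts but none above 12 in a library. A fold change was given to the remaining 40 hosts, 21 of the SNHG type and 19 MIRHG, which had at least 10 counts in at least 3 libraries and passed edgeR's filter. MIR99AHG reached 10 counts only in RSL3-R libraries, and SNHG18 and MIR181A2HG only in resistant libraries. For these hosts the rule favours a rise, and SNHG18 and MIR99AHG are among the 2-fold increases counted below. Per length, the SNHG-type hosts were the higher of the 2 kinds, with a median of 7.19 FPKM over all libraries against 0.797 FPKM for the MIRHG hosts. GAS5 was highest at 50.3 FPKM, followed by SNHG5 at 36.8, SNHG1 at 28.6 and SNHG6 at 28.4 FPKM. The highest MIRHG host was MIR503HG at 13.0 FPKM and the lowest of the 40 was MIR99AHG at 0.0466 FPKM.

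The summed level of the MIRHG rows was lowest in vehicle-treated and highest in RSL3-R cells, while in that of the SNHG-type rows the vehicle-treated range overlapped both resistant groups. Summed over the 55 MIRHG rows, vehicle-treated cells had 159 ± 1.09 CPM (SD, n = 3), against 217 ± 14.0 in erastin-R and 338 ± 5.32 CPM in RSL3-R libraries. MIR100HG alone made up 21.9% of this sum in vehicle-treated, 47.5% in erastin-R and 38.9% in RSL3-R libraries. Without MIR100HG the sum was 124 ± 1.85, 114 ± 2.09 and 207 ± 6.38 CPM, so erastin-R libraries were then below the vehicle-treated ones. The 28 SNHG-type rows summed to 798 ± 24.0, 828 ± 24.9 and 777 ± 13.6 CPM in the same order, with vehicle-treated libraries at 774 to 822, erastin-R at 803 to 853 and RSL3-R at 763 to 790 CPM, so the 2 resistant groups did not overlap. These sums were not tested, and in bulk RNA fewer cells that express a host and less host RNA per cell cannot be told apart.

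**Figure D1:**
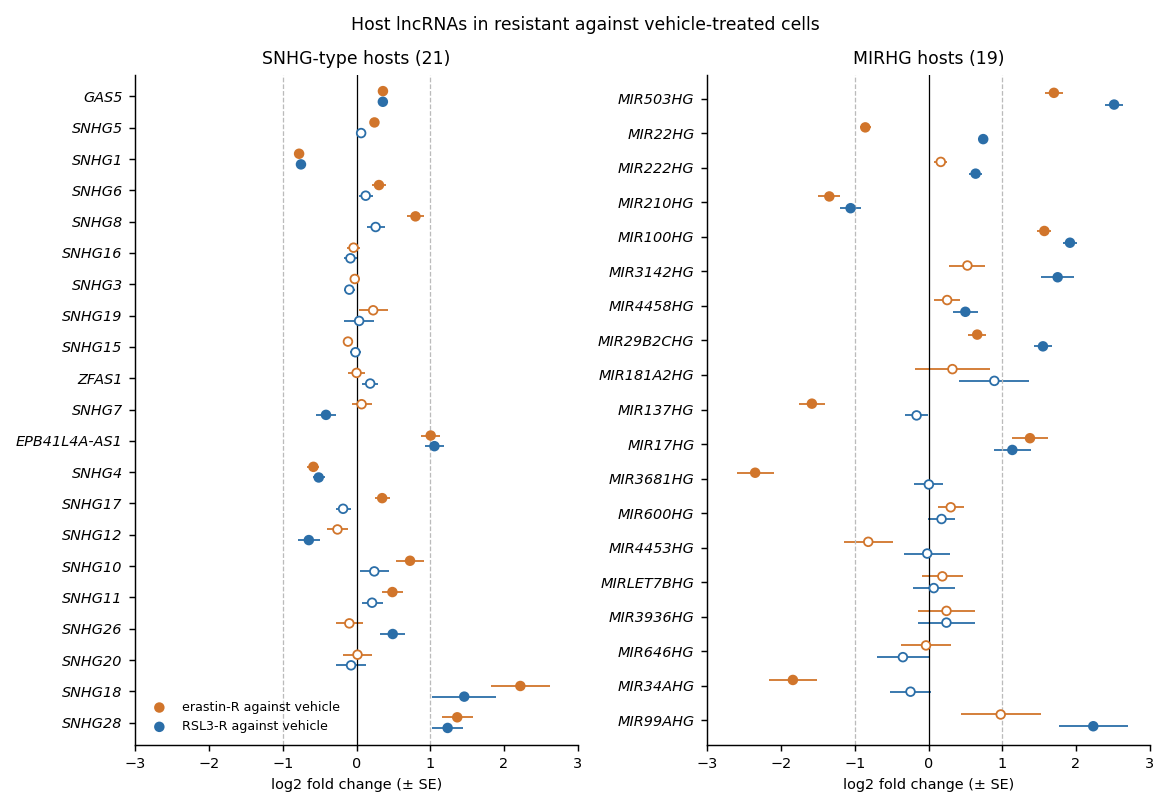
Log2 fold change (x axis, with standard error) of the 21 SNHG-type and 19 MIRHG hosts in erastin-R and RSL3-R cells against the same vehicle-treated libraries, ordered by FPKM. Filled points passed an adjusted p of 0.05, dashed lines mark 2-fold, and the MIRHG hosts spread from -2.35 to 2.52 while SNHG-type hosts other than EPB41L4A-AS1, SNHG18 and SNHG28 stayed within 2-fold.

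The first comparison asked which hosts differed in cells that survived erastin. In erastin-R cells 14 hosts were higher and 7 lower than in vehicle-treated cells, with 19 not called. The 21 called were 52.5% of the 40 hosts, against 54.0% of all genes tested, a share near the background. Among all genes tested 27.1% were called higher and 26.8% lower, against 35% and 17.5% of the hosts. At 2-fold, 6 hosts were higher and 4 lower, together 25% of the hosts against 13.4% of all genes, of which 6.70% were higher and 6.66% lower. The share among the other 1960 lncRNA genes tested was 25.2%. The median log2FC was 0.23 over the hosts and -0.00 over all genes. By kind, 10 of the 21 SNHG-type hosts rose and 2 fell, while 4 of the 19 MIRHG hosts rose and 5 fell.

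The second comparison asked the same of cells that survived RSL3, with the same vehicle-treated libraries as reference. Here 14 hosts were higher, 5 lower and 21 not called. This was 47.5% of the hosts, against 48.7% of all genes, of which 23.8% were higher and 24.9% lower. At 2-fold, 9 hosts rose and only MIR210HG fell, together 25% of the hosts against 10.1% of all genes and 16.5% of the other lncRNA genes. The background of 2-fold increases was 6.02% and of 2-fold decreases 4.08%. The median was 0.18 over the hosts and 0.01 over all genes. Over the other 1960 lncRNA genes it was higher than over the hosts, at 0.29, with 24.1% of them higher and 6.79% lower. Of the SNHG-type hosts 5 rose and 4 fell, and of the MIRHG hosts 9 rose and 1 fell.

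The direct comparison of RSL3-R with erastin-R cells gave different counts for the 2 kinds of host. Among the MIRHG hosts 10 were higher in RSL3-R cells, 6 of them at least 2-fold, and none was called lower, where 22.3% of all genes were higher and 26.9% lower. The count of lower MIRHG hosts was 0 with edgeR, with edgeR at an unadjusted p under 0.05 (11 higher) and with DESeq2 (9 higher). Among the SNHG-type hosts SNHG26 was higher and 6 were lower, with none past 2-fold by edgeR at an adjusted or unadjusted p or by DESeq2. The 6 became 3 with DESeq2, 2 without erastin-R replicate 3, RSL3-R replicate 1 or RSL3-R replicate 3, 3 without RSL3-R replicate 2, and 9 without erastin-R replicate 1. Over both kinds this was 42.5% of the hosts against 49.2% of all genes, and 15% against 10.3% at 2-fold (21.4% of the other lncRNA genes), where 6.86% of all genes were higher and 3.48% lower. The median was 0.57 over the MIRHG hosts and -0.13 over the SNHG-type hosts, against -0.02 over all genes. With upper quartile scaling, which moved the median of all genes by 0.10 in this comparison, the split over all hosts was 14 higher and 3 lower in place of 11 and 6, and 3 and 3 for the SNHG-type hosts alone. The other 1960 lncRNA genes tested also had more calls upward than downward in this comparison, with 501 higher and 179 lower and a median of 0.27.

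**Figure D2:**
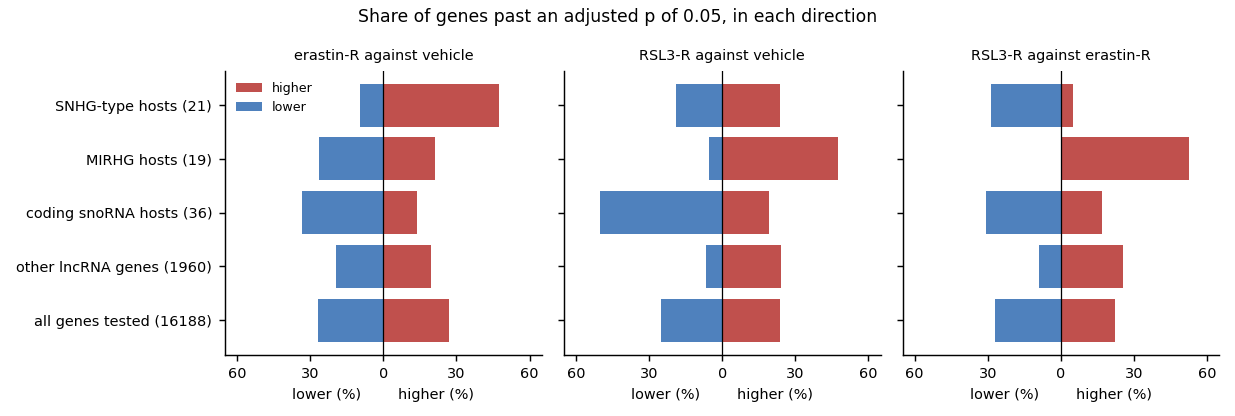
Percentage of genes past an adjusted p of 0.05 in each comparison, drawn to the right where higher and to the left where lower in the group named first, with the number of genes tested in brackets. Of the 19 MIRHG hosts 10 were higher and none lower in RSL3-R against erastin-R cells, and 10 of 21 SNHG-type hosts were higher in erastin-R against vehicle-treated cells.

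GAS5 (growth arrest-specific 5, chromosome 1, 173863900 to 173868882, GRCh38), a well-studied NMD target and host of box C/D snoRNAs, rose in both resistant groups. Its level was 160.4, 155.3 and 150.9 CPM in the vehicle-treated libraries, 203.2, 195.6 and 199.3 in the erastin-R libraries and 205.0, 201.0 and 191.6 in the RSL3-R libraries. Every resistant library was above every vehicle-treated one, and the 2 resistant groups overlapped. The log2FC was 0.36 for erastin-R (SE 0.06, edgeR adjusted p = 9.35e-05) and 0.36 for RSL3-R cells (SE 0.06, edgeR adjusted p = 0.000113), an increase well under 2-fold.

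SNHG1 (chromosome 11, 62851988 to 62855914), which contains the box C/D snoRNAs SNORD25 and SNORD27 shown above, moved the other way. It had 153.8, 148.5 and 146.2 CPM in vehicle-treated libraries, 91.3, 83.3 and 86.7 in erastin-R and 93.2, 85.7 and 87.1 CPM in RSL3-R libraries. All vehicle-treated libraries were above all resistant ones. SNHG1 fell by 0.78 on the log2 scale in erastin-R (SE 0.06, edgeR adjusted p = 1.98e-07) and by 0.75 in RSL3-R cells (SE 0.06, edgeR adjusted p = 2.92e-07). SNHG4, another snoRNA host, also fell in both (log2FC -0.59 and -0.51). Its exons share 14.0% of their length with a MATR3 entry on the same strand, which had 1 to 7 counts per library. featureCounts by default assigns no read that overlaps 2 genes, and with that default reads in the shared part are counted for neither.

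EPB41L4A-AS1 (chromosome 5, 112160526 to 112164276), the host of SNORA13, was higher in both groups. It had 13.0, 13.4 and 13.5 CPM in vehicle-treated libraries, 20.4, 30.2 and 29.6 in erastin-R libraries and 27.4, 28.7 and 26.9 in RSL3-R libraries. Erastin-R replicate 1 was lower than the other 2 of its group and still above all vehicle-treated libraries. Against vehicle, the log2FC was 1.01 (SE 0.13, edgeR adjusted p = 2.23e-05) and 1.06 (SE 0.13, edgeR adjusted p = 1.62e-05). The first of these was at least 1 in 6 of 12 alternative settings, with a range of 0.91 to 1.17, and was called at adjusted p in all 12. Of its exon length 49.6% overlaps EPB41L4A on the opposite strand, which had 42 to 82 counts per library, and whether the counting used strand is not given in the sources used here.

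ZFAS1 (chromosome 20, 49278178 to 49295738), the host of SNORD12 family snoRNAs beside ZNFX1, and SNHG16 (chromosome 17) were not called in any comparison. ZFAS1 had 20.0, 16.7 and 16.3 CPM in vehicle-treated, 18.6, 18.9 and 15.6 in erastin-R and 19.0, 20.3 and 21.0 CPM in RSL3-R libraries. Its log2FC was 0.00 in erastin-R cells (SE 0.11) and 0.18 in RSL3-R cells (SE 0.11). SNHG16 had 75.0, 77.0 and 82.8 CPM, 74.7, 67.4 and 86.1 CPM, and 75.3, 74.3 and 72.1 CPM in the same order, and the groups overlapped.

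SNHG5 (chromosome 6, 85660950 to 85678748), the host of SNORD50B, rose in erastin-R cells only among the comparisons with vehicle. The values were 98.3, 102.3 and 90.6 CPM in vehicle-treated, 116.9, 112.7 and 115.0 in erastin-R and 107.3, 98.0 and 98.8 CPM in RSL3-R libraries. The log2FC was 0.24 in erastin-R cells (edgeR adjusted p = 0.00582) and 0.06 in RSL3-R cells (edgeR adjusted p = 0.455). The direct comparison gave -0.18 (edgeR adjusted p = 0.0321), a call that was kept in 4 of 12 alternative settings and lost without erastin-R replicate 3 or any 1 of the RSL3-R libraries.

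Of the other SNHG hosts, SNHG6, SNHG8, SNHG10, SNHG11 and SNHG17 rose in erastin-R cells. SNHG8 and SNHG10 rose most among those under 2-fold (log2FC 0.80 and 0.73). The calls of SNHG6, SNHG11 and SNHG17 in erastin-R cells were each lost when a single library was left out, which was erastin-R replicate 3 for SNHG11, vehicle replicate 3 for SNHG17, and vehicle replicate 2, erastin-R replicate 2 or erastin-R replicate 3 for SNHG6. In RSL3-R cells SNHG7 and SNHG12 fell (log2FC -0.41 and -0.65) and SNHG26 rose (0.49). The call of SNHG12 was kept in all 12 alternative settings, that of SNHG7 was lost without vehicle replicate 1 or 2 or RSL3-R replicate 1 or 3, and that of SNHG26 without any 1 of the vehicle libraries or RSL3-R replicate 1 or 2. SNHG8 and SNHG17 were lower in RSL3-R than in erastin-R cells by a direct test (log2FC -0.54 and -0.53, edgeR adjusted p = 0.00168 and 0.000626).

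SNHG18 and SNHG28 were the SNHG-type hosts with the largest fitted increases, from low counts. SNHG18 (chromosome 5, 9546200 to 9550609), the host of SNORD123, had 7, 3 and 7 counts in vehicle-treated libraries, 21, 33 and 26 in erastin-R and 17, 11 and 19 in RSL3-R libraries. Against vehicle, the log2FC was 2.22 for erastin-R (SE 0.40, edgeR adjusted p = 0.000365) and 1.46 for RSL3-R cells (SE 0.43, edgeR adjusted p = 0.0124), the latter with an adjusted p of 0.0609 without vehicle replicate 2. SNHG28 had 1.73, 1.73 and 1.54 CPM in vehicle-treated, 4.23, 3.94 and 4.74 in erastin-R and 4.19, 3.05 and 4.56 CPM in RSL3-R libraries, with log2FC values of 1.37 and 1.24. The counted SNHG28 entry is annotated as protein-coding. Its exons overlap VSIG8 (14.7%) and CFAP45 (1.4%) on the same strand and SLAMF8 (25.5%) on the opposite strand. A second entry of the same symbol, annotated as a lincRNA, had no counts. It lies wholly (100%) within exons of the counted entry, and featureCounts by default assigns no read that overlaps 2 genes. With that default its 0 counts say nothing of its level, and the counted reads lie outside its exons. The rise is therefore that of the protein-coding entry, kept among the SNHG-type hosts by its symbol, and is not shown for the lincRNA.

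The MIRHG hosts that rose in both resistant groups at least 2-fold were MIR100HG, MIR503HG and MIR17HG. MIR100HG (chromosome 11, 122028327 to 122556721), the precursor of miR-100, let-7a-2 and miR-125b-1, had the highest CPM of them, although per length MIR503HG was higher (13.0 against 4.60 FPKM over all libraries). It had 33.0, 34.5 and 37.2 CPM in vehicle-treated libraries, 120.5, 96.3 and 93.9 in erastin-R libraries and 135.5, 124.7 and 135.2 CPM in RSL3-R libraries. All 3 groups were apart from each other. The log2FC was 1.57 in erastin-R (SE 0.09, edgeR adjusted p = 1.72e-08), 1.92 in RSL3-R cells (SE 0.10, edgeR adjusted p = 2.01e-09) and 0.35 between them (SE 0.09, edgeR adjusted p = 0.0051).

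MIR503HG (chromosome X, 134543337 to 134546632), which holds the hairpin of miR-503 in an intron, had the largest increase of the 40 hosts in RSL3-R cells. The levels were 5.48, 7.66 and 6.72 CPM in vehicle-treated, 19.7, 22.7 and 22.2 in erastin-R and 36.3, 39.7 and 37.6 CPM in RSL3-R libraries. No 2 groups overlapped, with RSL3-R libraries highest and vehicle-treated lowest. Against vehicle, the log2FC was 1.70 (SE 0.12, edgeR adjusted p = 7.22e-08) for erastin-R and 2.52 (SE 0.12, edgeR adjusted p = 1.25e-09) for RSL3-R cells, and the 2 resistant groups differed by 0.82 (edgeR adjusted p = 2.60e-05).

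MIR17HG (chromosome 13, 91347820 to 91354579) gives rise to the miR-17-92 cluster, which is known for promoting proliferation. It had 1.43, 1.30 and 1.30 CPM in vehicle-treated libraries, 2.98, 3.31 and 4.19 in erastin-R and 3.55, 2.24 and 3.10 in RSL3-R libraries, with both resistant groups above the vehicle range. The log2FC values were 1.38 (edgeR adjusted p = 0.000287) and 1.14 (edgeR adjusted p = 0.0017). MIR29B2CHG (chromosome 1, 207801518 to 207879096), the host of miR-29b-2 and miR-29c, rose stepwise. It had 8.53, 10.4 and 10.1 CPM, then 15.2, 15.9 and 14.6, then 26.8, 32.3 and 25.9 CPM in vehicle-treated, erastin-R and RSL3-R libraries. The log2FC was 0.66 for erastin-R (edgeR adjusted p = 0.000367) and 1.55 for RSL3-R cells (edgeR adjusted p = 1.24e-07), and 0.89 between the 2 resistant groups (edgeR adjusted p = 2.07e-05).

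**Figure D3:**
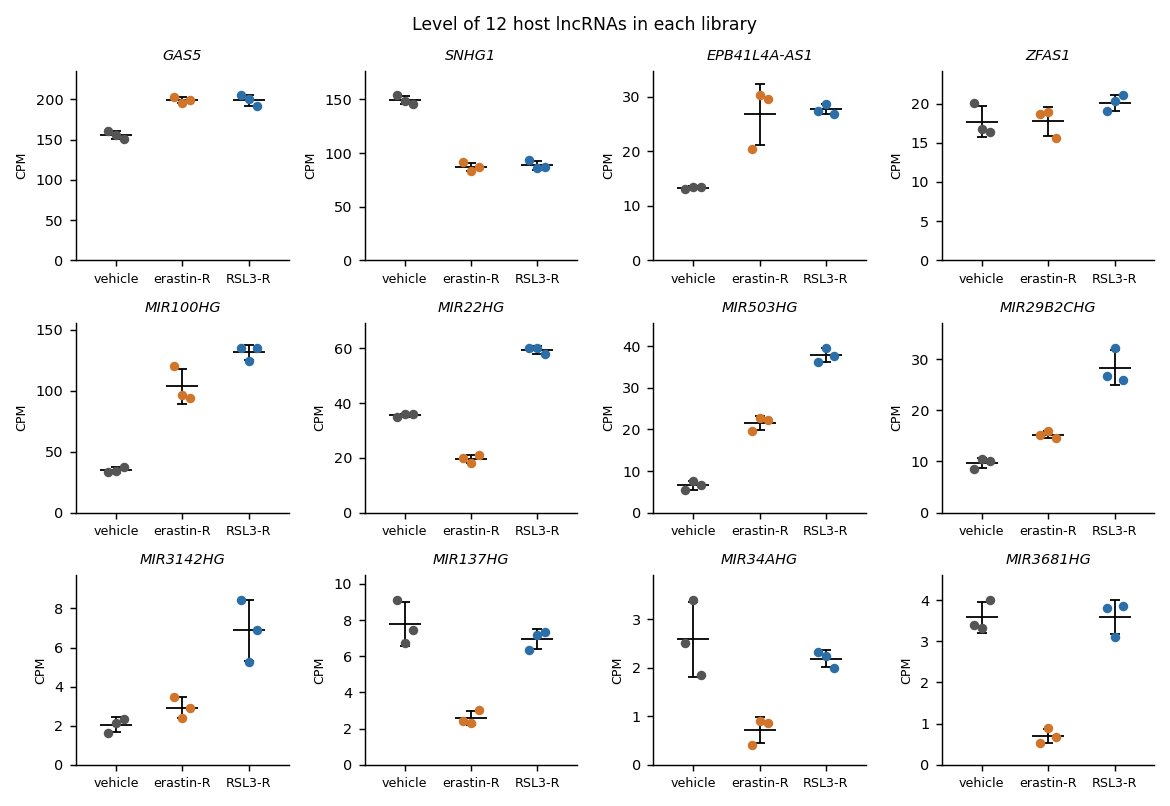
Level in CPM (y axis, from 0) of 12 hosts in each of the 9 libraries, with the mean and SD of 3 libraries per group as bars. MIR100HG, MIR503HG and MIR29B2CHG stepped up from vehicle-treated to erastin-R to RSL3-R libraries, MIR22HG was lowest in erastin-R and highest in RSL3-R libraries, and MIR137HG, MIR34AHG and MIR3681HG were low in erastin-R libraries only.

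MIR22HG (chromosome 17, 1711493 to 1717174), the host of miR-22, was the host with opposite calls in the 2 resistant groups. It had 34.8, 35.9 and 36.0 CPM in vehicle-treated libraries, 19.8, 18.1 and 20.9 CPM in erastin-R libraries and 60.3, 60.1 and 57.9 CPM in RSL3-R libraries. The 3 groups did not overlap. It fell by 0.86 on the log2 scale in erastin-R cells (SE 0.08, edgeR adjusted p = 6.16e-07) and rose by 0.74 in RSL3-R cells (SE 0.07, edgeR adjusted p = 1.56e-06), and the direct difference was 1.60 (SE 0.08, edgeR adjusted p = 3.1e-09).

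MIR3681HG, MIR34AHG and MIR137HG were lower in erastin-R cells and not called in RSL3-R cells. The first, MIR3681HG (chromosome 2), had 3.40, 3.34 and 4.01 CPM in vehicle-treated, 0.536, 0.891 and 0.669 in erastin-R and 3.80, 3.11 and 3.86 CPM in RSL3-R libraries. It fell by 2.35 on the log2 scale in erastin-R cells (SE 0.25, edgeR adjusted p = 3.1e-06), the largest decrease of the 40 hosts, and had a log2FC of 0.00 in RSL3-R cells (SE 0.20). MIR34AHG (chromosome 1), the host of the p53-induced miR-34a, had 2.50, 3.40 and 1.85 CPM, then 0.417, 0.891 and 0.851, then 2.32, 2.24 and 1.99 CPM. Its erastin-R libraries were all below the others, with a log2FC of -1.84 (SE 0.33, edgeR adjusted p = 0.000306). MIR137HG (chromosome 1), the host of miR-137, an miRNA best known from neurons, had 9.12, 6.73 and 7.46 CPM, then 2.44, 2.29 and 3.04, then 6.32, 7.15 and 7.36 CPM. Its log2FC was -1.58 in erastin-R cells (SE 0.18, edgeR adjusted p = 4.73e-06), and 6.9% of its exon length overlaps DPYD on the same strand. The direct difference between the resistant groups was called for all 3, with log2FC values of 2.36, 1.60 and 1.42 for MIR3681HG, MIR34AHG and MIR137HG.

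MIR210HG (chromosome 11, 565660 to 568457), host of the hypoxia-induced miR-210, was the only MIRHG host that fell in both groups. It had 21.7, 17.7 and 16.2 CPM in vehicle-treated, 6.25, 7.51 and 8.15 in erastin-R and 10.2, 8.89 and 7.71 CPM in RSL3-R libraries. The resistant libraries were all below the vehicle-treated ones and overlapped each other. Against vehicle, the log2FC was -1.35 (SE 0.15, edgeR adjusted p = 4.84e-06) for erastin-R and -1.06 (SE 0.15, edgeR adjusted p = 4.33e-05) for RSL3-R cells, and the latter was past 2-fold in 10 of 12 alternative settings.

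MIR3142HG and MIR99AHG passed 2-fold in RSL3-R cells and were not called in erastin-R cells. Their log2FC in erastin-R cells was 0.53 and 0.98 (edgeR adjusted p = 0.0831 and 0.142). Every erastin-R library was above every vehicle-treated one for both, so the rise is not shown to be particular to RSL3-R cells. MIR99AHG met the count rule only through the RSL3-R libraries, where it is highest. MIR3142HG (chromosome 5, 160438594 to 160487426), from which miR-146a, an NF-κB-induced miRNA, arises, had 1.61, 2.16 and 2.34 CPM in vehicle-treated, 3.45, 2.42 and 2.92 in erastin-R and 8.45, 5.28 and 6.90 CPM in RSL3-R libraries. The log2FC was 1.75 in RSL3-R cells (SE 0.22, edgeR adjusted p = 2.11e-05) and 1.22 between the resistant groups (edgeR adjusted p = 0.000328). MIR99AHG (chromosome 21), the counterpart of MIR100HG with the paired seeds, had 1, 4 and 5 counts in vehicle-treated, 7, 7 and 6 in erastin-R and 16 in each of the RSL3-R libraries. Its log2FC was 2.23 in RSL3-R cells (SE 0.47, edgeR adjusted p = 0.00137), and the direct difference of 1.26 (edgeR adjusted p = 0.0221) lost its call in 6 of 12 alternative settings, including those without erastin-R replicate 2 or 3 or RSL3-R replicate 1 or 2. Its CPM was at most 1.03 in any library. MIR222HG, the host of miR-221 and miR-222, rose in RSL3-R cells by less than 2-fold (log2FC 0.64, edgeR adjusted p = 3.94e-05) and had 0.17 in erastin-R cells (edgeR adjusted p = 0.132).

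Reads were also counted at the annotated positions of the small RNAs. Of the 40 hosts 39 contain a small RNA gene on the same strand, 83 in all, of which 38 are miRNA, 43 snoRNA and 2 scaRNA genes. All 46 that lie in or partly in host exons had no count in any library, but featureCounts by default assigns no read that overlaps 2 genes, so these zeros say nothing of their level. Of the 37 intronic ones 30 had a count. Of the intronic ones 8 passed edgeR's filter, and those called in a comparison with vehicle were picked out after their values were seen. SNORA71C, in an intron of SNHG17, had 26, 18 and 10 counts in vehicle-treated, 38, 54 and 43 in erastin-R and 15, 29 and 8 in RSL3-R libraries. Its log2FC in erastin-R cells was 1.33 (edgeR adjusted p = 0.0121), in the direction of SNHG17, and was lost without vehicle replicate 3 (adjusted p = 0.0576). SCARNA13, in an intron of SNHG10, had 6, 8 and 7, then 17, 15 and 18, then 8, 13 and 7 counts. It was higher in erastin-R cells by 1.24 (edgeR adjusted p = 0.0138), as SNHG10 was, and lost the call without vehicle replicate 1 (adjusted p = 0.0551). MIR221, in MIR222HG, had 19, 26 and 26, then 25, 24 and 27, then 55, 57 and 49 counts, and the RSL3-R libraries stood apart from the other 6. Its log2FC was 1.19 in RSL3-R (edgeR adjusted p = 0.000615) and 0.10 in erastin-R cells (edgeR adjusted p = 0.748). MIR125B1, in MIR100HG, had 0, 1 and 7, then 15, 1 and 5, then 24, 27 and 20 counts, with a log2FC of 3.11 in RSL3-R cells (edgeR adjusted p = 0.00379) that became 5.27 without vehicle replicate 3. The remaining tested rows were not called in either comparison with vehicle. In erastin-R cells SNORA71A and SNORA71B, also in SNHG17, had log2FC values of 0.55 and 0.15 (edgeR adjusted p = 0.153 and 0.838). SNORA13 in EPB41L4A-AS1 had 0.68 and SNORA73B in SNHG3 -0.44 (edgeR adjusted p = 0.199 and 0.114). All these rows count reads over the hairpin or snoRNA position in oligo(dT)-selected RNA and say nothing of the mature small RNA.

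**Figure D4:**
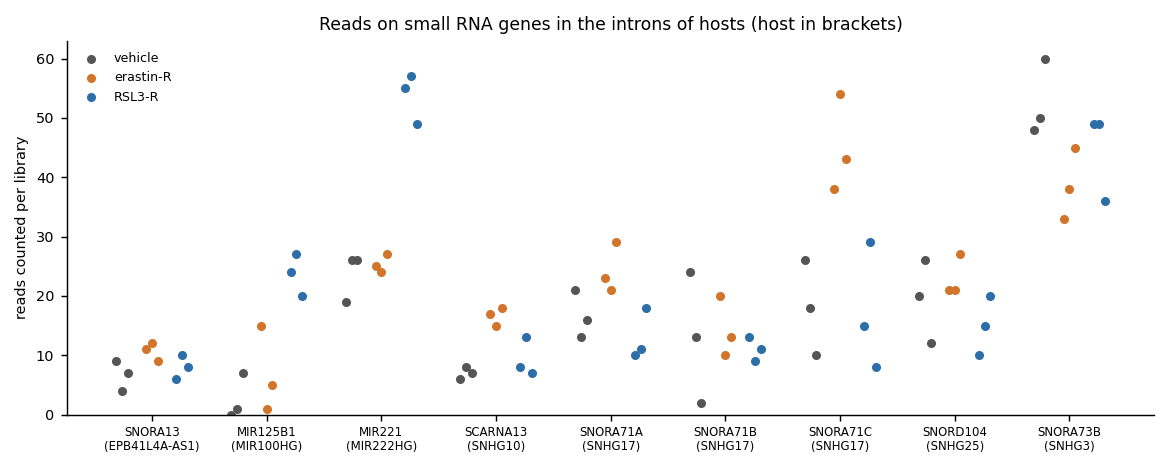
Reads counted per library (y axis) on the intronic small RNA genes that passed edgeR's filter, with the host in brackets, including SNORD104 of SNHG25, a host below the count rule. MIR221 and MIR125B1 were highest in the RSL3-R libraries, and SNORA71C and SCARNA13 in the erastin-R libraries.

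Of the 40 hosts 10 start within 2000 bases of a protein-coding gene on the opposite strand. Starts here are the outer ends of the counted GENCODE genes. By these, GAS5, MIR22HG and SNHG10 each overlap the start of their neighbour. SNHG1 and SLC3A2, the heavy chain that pairs with SLC7A11 in system xc-, start 188 bases apart. SLC3A2 had 160.1, 155.7 and 137.6 CPM in vehicle-treated libraries, 221.8, 308.5 and 303.0 in erastin-R and 296.4, 301.2 and 296.5 CPM in RSL3-R libraries, so all resistant libraries were above the vehicle-treated ones. Its log2FC was 0.88 (edgeR adjusted p = 8.36e-06) and 0.98 (edgeR adjusted p = 3.52e-06), opposite to SNHG1, which fell in both. The bases upstream of SNHG1 are from RefSeq's promoter table (GRCh38.p14, chr11:62855836-62856101, minus strand), as read in the direction of SNHG1. They begin at the base before the start of SLC3A2 and end inside the first 50 bases of SNHG1, counted from RefSeq's start. The motif CCCGCCCC is in capitals.
SNHG1 promoter: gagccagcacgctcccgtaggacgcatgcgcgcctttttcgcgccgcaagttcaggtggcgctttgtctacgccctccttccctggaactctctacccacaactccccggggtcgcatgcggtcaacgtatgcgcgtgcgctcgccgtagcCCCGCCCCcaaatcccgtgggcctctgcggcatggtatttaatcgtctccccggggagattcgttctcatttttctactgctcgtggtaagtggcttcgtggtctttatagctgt
GAS5 and ZBTB37, a zinc finger gene, start 800 bases apart and rose together, with log2FC values for ZBTB37 of 0.76 for erastin-R and 0.70 for RSL3-R cells (edgeR adjusted p = 6.29e-06 and 1.55e-05). MIR22HG starts 651 bases from WDR81, which was not called in either comparison with vehicle (log2FC -0.15 and -0.04). The RefSeq promoter window of MIR22HG, 1716161 to 1716460, places its start on the other side of the WDR81 start at 1716523. SNHG10, higher in erastin-R cells, starts 1369 bases from GLRX5, an iron-sulfur cluster protein that had -0.26 for erastin-R and -0.66 for RSL3-R cells. The exons of these 2 genes overlap by 20.1% of SNHG10. The other tested neighbours lie beside hosts not called in any comparison. In erastin-R cells FBXW7 beside MIR4453HG (log2FC 0.83, host -0.82), SLC22A5 beside MIR3936HG (1.04) and TRAF7 beside SNHG19 (0.32) were called higher. ZNFX1 beside ZFAS1 was called lower there (-0.41). In RSL3-R cells FBXW7 (0.49), SLC22A5 (0.30) and ZNFX1 (0.24) were called higher, and TRAF7 was not called.

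**Figure D5:**
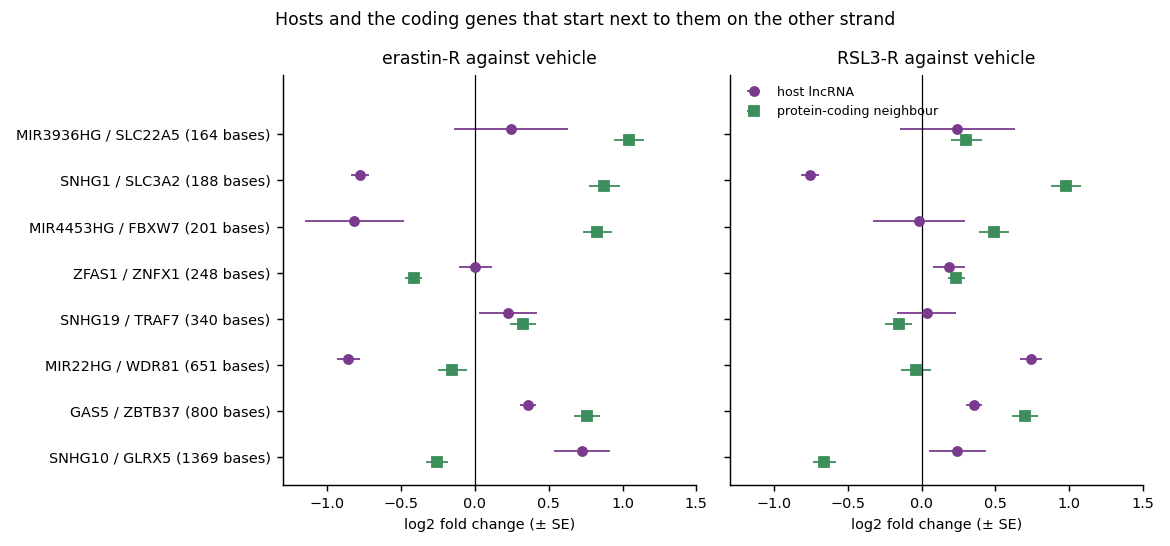
Log2 fold change with standard error of 8 hosts (circles) and of the protein-coding gene that starts next to each on the other strand (squares), ordered by the distance between the starts. SNHG1 fell while SLC3A2 rose in both comparisons with vehicle, and GAS5 and ZBTB37 were both higher.

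RefSeq's promoter table, 250 bases before to 50 after RefSeq's start, holds 37 of the 40 hosts. That start is not always the outer end of the counted GENCODE gene. The ZFAS1 window is 49278392 to 49278691, while the counted gene starts at 49278178. For MIR100HG the window is 122100797 to 122101096, inside a minus-strand gene with its outer end at 122556721. MIR3681HG and MIR99AHG have windows from 12006866 and 16070238, against gene starts of 11848622 and 15928296. The runs and motifs below are those at RefSeq's starts. A run of at least 5 pyrimidines that begins with C at the annotated start, as in transcripts with a terminal oligopyrimidine tract, was found in 6 of 19 SNHG-type and in none of 18 MIRHG hosts, against 4.04% of all 27305 promoters. The starts of 5 of them are shown because they differ in length of the run, given in capitals, and in how the host changed.
ZFAS1 start: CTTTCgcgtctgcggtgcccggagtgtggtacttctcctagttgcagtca
SNHG5 start: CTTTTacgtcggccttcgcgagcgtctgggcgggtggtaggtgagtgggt
SNHG19 start: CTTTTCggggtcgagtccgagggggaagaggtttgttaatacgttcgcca
SNHG12 start: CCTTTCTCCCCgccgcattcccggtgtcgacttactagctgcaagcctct
SNHG18 start: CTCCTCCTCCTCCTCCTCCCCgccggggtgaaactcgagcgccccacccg
The run was 5 bases long in ZFAS1 and SNHG5, 6 in SNHG19, 11 in SNHG12 and 21 in SNHG18. The remaining host of the 6, SNHG4, had a run of 13 bases and is not shown. It fell in both resistant groups against vehicle (log2FC -0.59 and -0.51). ZFAS1 and SNHG19 were not called in any comparison, SNHG5 rose in erastin-R cells, SNHG12 fell in RSL3-R cells and SNHG18 rose in both. Hosts with such a start thus changed in either direction or not at all. The letters CCCGCCCC, searched on both strands, were in 8 of 19 SNHG-type and 2 of 18 MIRHG hosts, against 22.7% of all promoters. CACGTG was in 1 and 0 (7.44% of all) and TGATGNAA in 0 and 2 (3.67% of all). The 2 were MIR3681HG and MIR99AHG.

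Of 36 protein-coding genes that also carry intronic snoRNAs, 5 rose and 12 fell in erastin-R cells (median log2FC -0.13), and 7 rose and 18 fell in RSL3-R cells (median -0.21). RPL23A, a ribosomal protein gene that hosts SNORD42 snoRNAs, fell by 1.32 and HSPA8, a heat shock chaperone gene that hosts SNORD14 snoRNAs, by 1.09 on the log2 scale in erastin-R cells. Genes of the NMD machinery and exon junction complex were mixed, with 7 of 22 higher and 8 lower in erastin-R cells (median -0.04) and 3 higher and 9 lower in RSL3-R cells (median -0.10). RBM8A, a core subunit of the exon junction complex, fell by 1.10 in erastin-R cells. Of 16 genes for core proteins of snoRNA particles, 1 was higher and 6 were lower in erastin-R cells, and 2 were higher and 10 lower in RSL3-R cells (median -0.36). Of 16 miRNA processing genes, 5 were higher and 5 lower in erastin-R cells, and 2 higher and 4 lower in RSL3-R cells. In the order above, these lists had 47.2%, 68.2%, 43.8% and 62.5% of their genes called in erastin-R cells, against 54.0% of all genes. In RSL3-R cells they had 69.4%, 54.5%, 75% and 37.5%, against 48.7%. Of all genes 27.1% rose and 26.8% fell in erastin-R cells, and 23.8% and 24.9% in RSL3-R cells. The lists were not tested as sets. The other 1960 lncRNA genes had 385 higher and 379 lower in erastin-R and 473 higher and 133 lower in RSL3-R cells.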

How the data were processed

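The authors deposited, for each of the 9 libraries, raw counts of reads per gene and FPKM values made from them. Per the labels and the study's methods, RNA was selected with oligo(dT), and uniquely mapped reads in exons were used. The submitters' processing notes name HISAT2 2.0.5 and featureCounts 1.5.0-p3, and the strand setting is not given in the sources used here. All 58735 genes match the positions of GENCODE 29 (GRCh38).

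Counts were compared with edgeR 4.0.16 in R 4.3.3 (TMM, filterByExpr, quasi-likelihood test, 1 model of 9 libraries in 3 groups, no covariate), with Benjamini-Hochberg adjustment over the 16188 genes tested. The coefficient of variation between replicates was 8.56%, and total counts were 15405102 to 17273464. Each standard error is the fitted log2 fold change divided by the root of its F statistic. FPKM was used only to compare levels between genes. The script was tested on simulated data. Alternatives were DESeq2 1.42.0, upper quartile scaling, no filter, a filter of 10 counts in 3 libraries, only the groups compared, a block for the replicate number, leaving out libraries in turn, and an unadjusted p.

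Values are printed in full for GAS5, ZFAS1, EPB41L4A-AS1, the 5 hosts of highest CPM and every host past 2-fold in a comparison. Neighbours are the nearest protein-coding starts within 2000 bases on the opposite strand. The members and gene lists were chosen with earlier results of these data known. Plots were made in Python 3.11.15 with matplotlib 3.10.9.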

Additional observations from a re-analysis of the deposited data

Results flagged for a closer look

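The effect against the shared vehicle-treated libraries differed between RSL3-R and erastin-R cells for 17 of the 40 hosts, by edgeR's quasi-likelihood test of RSL3-R against erastin-R cells at an adjusted p under 0.05. This was 42.5% of the hosts, below the 49.2% of all genes called in the same comparison. Among the SNHG hosts the difference was -0.54 on the log2 scale for SNHG8, -0.53 for SNHG17, -0.48 for SNHG10, -0.48 for SNHG7, -0.39 for SNHG12 and -0.18 for SNHG5, all lower in RSL3-R cells, and 0.59 for SNHG26. The calls of SNHG5, SNHG10 and SNHG12 were each kept in 4 of 12 alternative settings and were lost without erastin-R replicate 3 or any 1 of the RSL3-R libraries, those of SNHG10 and SNHG12 also without erastin-R replicate 2, that of SNHG7 was lost without erastin-R replicate 3 or RSL3-R replicate 1 or 3, and that of SNHG26 without erastin-R replicate 2. SNHG8 and SNHG17 were called in all 12.

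Among the MIRHG hosts every such difference was higher in RSL3-R cells. It was 0.35 for MIR100HG, 0.47 for MIR222HG, 0.82 for MIR503HG, 0.89 for MIR29B2CHG, 1.22 for MIR3142HG, 1.26 for MIR99AHG, 1.42 for MIR137HG, 1.60 for MIR34AHG, 1.60 for MIR22HG and 2.36 for MIR3681HG. MIR99AHG met the count rule only through the RSL3-R libraries. The other 1960 lncRNA genes tested also had more calls upward than downward in this comparison, 501 against 179. MIR22HG was the host whose 2 effects against vehicle were called in opposite directions.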

How the results depend on the processing

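The number of hosts called in each comparison stayed within 1.5 times, and the median log2 fold change of the hosts moved by less than the median standard error, under every alternative run. The median between the resistant groups was near 0 (0.01) and became -0.01 without erastin-R replicate 2, and the hosts called lower there, 6, were 2 to 9 when a library was left out. Leaving out 1 library gave 19 to 23 hosts called in erastin-R cells, 16 to 18 in RSL3-R cells and 12 to 21 between the resistant groups, against 21, 19 and 17. Without erastin-R replicate 1, which stood apart, the first was 15 higher and 8 lower and the last 12 higher and 9 lower. DESeq2 gave 10 higher and 3 lower in the last. Same-numbered libraries did not deviate together (mean r -0.0049 over 9 pairs), so the numbers were not taken as pairs, and the replicate block gave 22, 19 and 18 hosts called.

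The log2 fold changes that reversed were all of uncalled values. In erastin-R cells ZFAS1 gave -0.0025 with DESeq2, -0.053 with upper quartile scaling and -0.008 without a filter. Over the libraries left out it ranged from -0.058 to 0.095, SNHG16 from -0.14 to 0.039 and MIR221 from -0.052 to 0.18. In RSL3-R cells MIR3681HG gave -0.0073 without a filter and SNORA71C 0.015 with upper quartile scaling, and their ranges were -0.048 to 0.096 and -0.62 to 0.38. Between the resistant groups GAS5 gave 0.015 with DESeq2, 0.10 with upper quartile scaling and 0.037 with only the groups compared, and upper quartile scaling gave SNHG16 0.059 and ZBTB37 0.043. The ranges there were -0.017 to 0.063 for GAS5, -0.0086 to 0.076 for SNHG1, -0.12 to 0.052 for SNHG16, -0.22 to 0.025 for SNHG28, -0.11 to 0.14 for EPB41L4A-AS1, -0.038 to 0.18 for SLC3A2 and -0.11 to 0.038 for ZBTB37. The causes were not tested. Hosts under 10 counts in the vehicle-treated libraries, such as SNHG18 and MIR99AHG, are limited by depth, with standard errors of 0.40 to 0.54 in erastin-R cells.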
